A study of Mus musculus with 4 samples.

Results

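The calpain genes are described here in the mouse ovarian cancer line BR5FVB1-Akt after treatment with decitabine, a nucleoside drug that enters newly made DNA, binds the DNA methyltransferases that act on it and so lowers methylation. The set held 9 listed genes, 8 of the calpain family (Capn1, Capn2, Capn3, Capn5, Capn6, Capn7, Capn10 and the small subunit gene Capns1) and Cast. Cast encodes calpastatin, the inhibitor of the enzymes with a Capn1 or Capn2 subunit. A gene was read from the array row that carries its symbol alone, and from the row with the highest mean where there were several. By that rule 7 of the 9 genes had a value, among 22180 genes measured in all. Every row of Capn1 (2 rows) and Capn10 (1 row) also carried another gene's symbol, so no level is given for either gene. Capn6 was selected on its measured log2 difference between the decitabine and control arrays, a fall, so its values are a description and carry no test. The other genes entered by family name.

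Total RNA came from 2 samples given 10 uM decitabine for 72 h and from 2 control samples cultured without it, and each sample was hybridised to 1 Affymetrix Mouse Gene ST array. The 4 samples shared the cell line and the culture medium, and the labels call them biological replicates without saying how they were cultured, so p-values speak to the spread of 4 arrays alone. The range of the deposited values was taken as that of log2 expression, which all fold changes here assume. Array medians were 4.60 and 4.66 with decitabine and 4.60 on both control arrays, and the number of arrays limited the precision. Levels are of bulk RNA, in which fewer cells of a type and less RNA per cell cannot be told apart.

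Calpains are cysteine proteases of the cytosol, the best known of which are switched on by calcium. The classical enzymes, mu-calpain and m-calpain, pair a large catalytic subunit (encoded by Capn1 or Capn2) with the common small subunit encoded by Capns1, and calpastatin binds and blocks the active enzyme. They cut their substrates at a few sites rather than degrading them, and many of these are proteins that tie the actin skeleton to integrin adhesions, so that calpain activity bears on how cells spread and move. Capn6 is unusual in the family: its product lacks the active-site cysteine, is held not to be a protease, and has been found to bind and stabilise microtubules.

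Capn6 had the most negative log2 fold change of the 7 genes. Its values (row 17545106) were 8.28 and 8.24 on the log2 scale on the decitabine arrays and 9.67 and 9.58 on the control arrays. The arrays of the groups lay more than a full log2 unit apart, while arrays of the same group lay within 0.1 of each other. Mean levels were 8.26 ± 0.03 (SD, n = 2) with decitabine and 9.63 ± 0.07 in control cells, a log2 fold change of −1.37 ± 0.10 (limma SE), so that the level in control cells was 2.58-fold that in treated cells. Ordered by log2 fold change alone, Capn6 held place 7 among the decreases of all 22180 genes, between Pipox (−1.41) and Tmem255a (−1.28). Because the gene was picked for this difference, the order is no evidence for it.

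**Figure D1:**
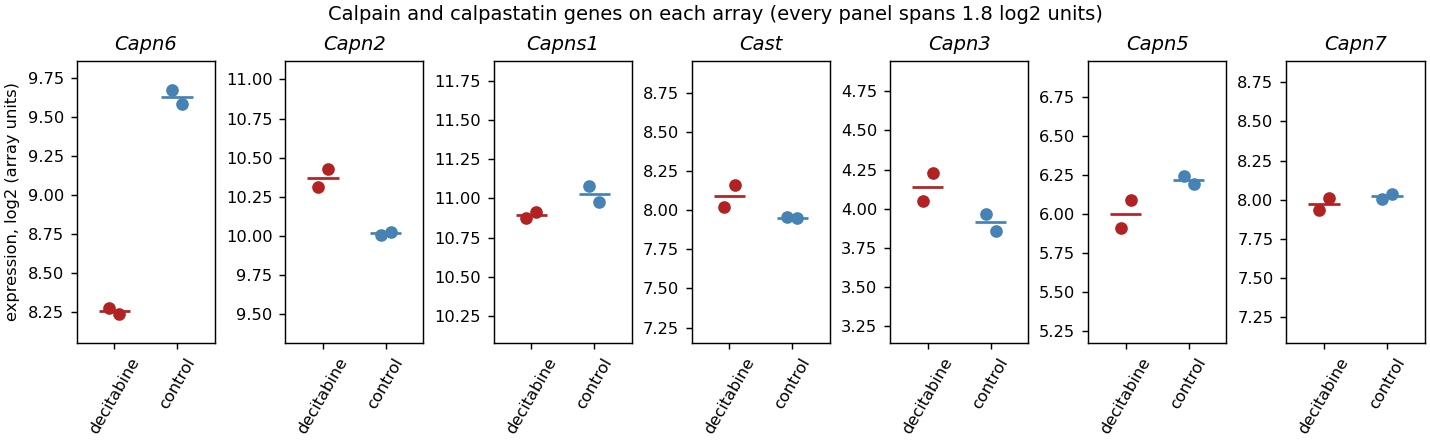
Expression (log2, array units) of the 7 calpain and calpastatin genes on the 2 decitabine arrays (red) and the 2 control arrays (blue), with horizontal lines at the group means; every panel spans the same number of log2 units. Capn6 lies at 8.24 to 8.28 with decitabine and 9.58 to 9.67 in control cells, whereas the largest difference between group means among the other 6 genes is 0.35 (Capn2).

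None of the other 6 genes with a value passed in limma with Benjamini-Hochberg adjustment over all genes at a threshold of 0.05. Over all genes 0.131% passed as higher and 0.0135% as lower in that test. Before adjustment, at p under 0.05, 1 of the 6 was higher (Capn2) and 0 were lower, against 7.34% and 6.97% of all genes. With decitabine arrays wholly above control arrays stood 3 of the 7 genes (Capn2, Cast and Capn3), wholly below stood 3 (Capn6, Capns1 and Capn5), and Capn7 overlapped. Of all genes, 23.4% were separated upward and 22.5% downward, and Capn6, in the downward count, was picked for its fall.

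The genes of the classical calpains and their inhibitor had small differences of both signs. Capn2, which encodes the catalytic subunit of m-calpain (row 17230611), measured 10.31 and 10.43 with decitabine and 10.01 and 10.02 in control cells. Both treated arrays were the higher ones, with a log2 fold change of 0.35 ± 0.10 (limma adjusted p = 0.243, 95% interval 0.10 to 0.61), a 1.28-fold difference. When the variance was fitted with an intensity trend, Capn2 passed as higher (limma adjusted p = 0.00452), as did 3.68% of all genes, and 0 of the other 5 passed in either direction (3.60% of all genes were lower). Over the alternatives its adjusted p ran from 0.00452 to 0.615, and its log2 fold change from 0.30 to 0.41.

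Capns1, the small subunit that Capn1 and Capn2 products need for stability, had the values 10.88 and 10.92 with decitabine against 11.08 and 10.98 in control cells (row 17488957). The groups did not overlap, but the gap between them was smaller than the gap between the control arrays, and the log2 fold change was −0.13 ± 0.10 (limma adjusted p = 0.616, 95% interval −0.39 to 0.12). Cast, the inhibitor gene, measured 8.02 and 8.16 with decitabine and 7.96 and 7.95 in control cells (row 17294421). Its log2 fold change was 0.14 ± 0.10 (limma adjusted p = 0.628, 95% interval −0.13 to 0.40), with the treated arrays further from each other than the lower one was from the controls. For both the subunit and the inhibitor gene the 95% interval held 0.

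Among the non-classical calpains, Capn3 encodes the skeletal muscle enzyme that binds titin and whose loss in humans causes a limb-girdle muscular dystrophy. Its single-symbol row (17375045) measured 4.05 and 4.23 with decitabine and 3.97 and 3.86 in control cells, for a log2 fold change of 0.23 ± 0.12 (limma adjusted p = 0.454, 95% interval −0.07 to 0.52). A further row carried Capn3 together with Ganc and was not used. Capn3 was also the single gene of the 7 below the median level of all genes, and no detection limit could be set for it.

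Capn5, a calpain without the calcium-binding penta-EF-hand domain, measured 5.91 and 6.09 with decitabine and 6.24 and 6.19 in control cells (row 17493526). All treated values were the lower ones, and the log2 fold change was −0.22 ± 0.11 (limma adjusted p = 0.456, 95% interval −0.50 to 0.07). Capn7, whose product binds proteins of the ESCRT-III membrane-cutting machinery, measured 7.94 and 8.01 with decitabine and 8.01 and 8.04 in control cells (row 17298426). Its log2 fold change was −0.05 ± 0.10 (limma adjusted p = 0.876, 95% interval −0.30 to 0.20), the smallest of the 7. For the 6 genes besides Capn6 the 95% intervals ran from −0.50 to 0.61 at their extremes and so left out a 2-fold difference in either direction, although with 2 arrays a group and variances shared between genes of all levels they may be too narrow.

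The rest of the calpain family showed no called difference. All 7 further genes (Capn8, Capn9, Capn11, Capn12, Capn13, Capn15 and Capns2) had a row of their own, 6 of them below the median level of all genes. Their log2 fold changes lay between −0.20 and 0.14 with a median of −0.11, while the median over all genes was 0.00. None passed in limma, and 0 of the 7 did so before adjustment (p under 0.05) or with the intensity trend. Of all genes 7.34% were higher and 6.97% lower before adjustment, and 3.68% and 3.60% with the trend, so 0 of 7 says little. Capn15, the homologue of the fly gene small optic lobes, was the one with separated arrays, at 6.02 and 5.98 with decitabine and 6.09 and 6.13 in control cells (log2 fold change −0.11 ± 0.10). Arrays were separated downward in 22.5% of all genes and upward in 23.4%. The gastrointestinal calpains Capn8 and Capn9 stood at −0.14 ± 0.12 and 0.14 ± 0.20, the testis calpain Capn11 at −0.11 ± 0.12, and Capns2, a second small-subunit gene, at −0.20 ± 0.16. Capn12 and Capn13 stood at 0.03 ± 0.15 and 0.03 ± 0.10. Whether Capn6 differs from its relatives was not tested, because it was picked for its value.

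**Figure D2:**
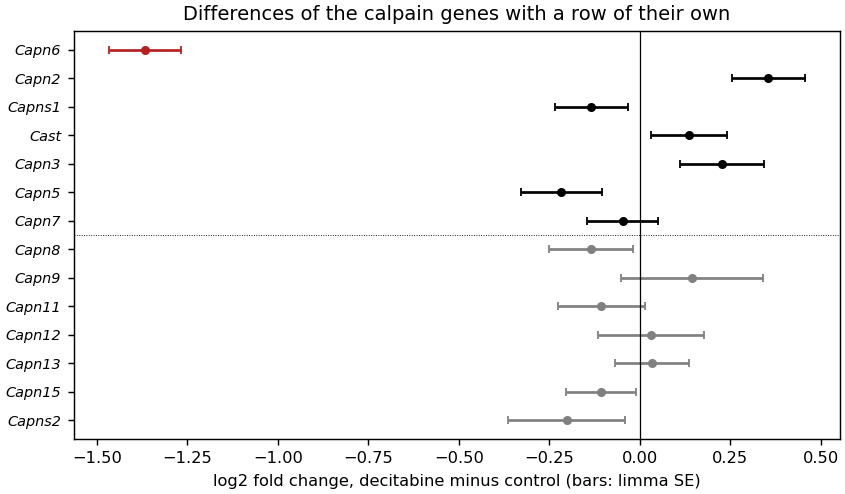
Log2 fold change, decitabine minus control, with limma SE bars, for Capn6 (red), the other 6 genes of the set (black) and 7 further calpain genes (grey, under the dotted line). Capn6 lies at −1.37, and the other 13 genes lie between −0.22 and 0.35.

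Decitabine acts on the methylation of CG dinucleotides, which was not measured here, so promoter sequence can be described but not tied to the expression values. RefSeq promoter windows of assembly GRCm38.p6, from 250 bases before to 50 bases after a start, were matched to 8 of the 9 genes, with 13 windows. The windows of Capn6 and of Capn2, shown because these genes had the lowest and the highest log2 fold change of the set, differ clearly in their CG content. Capitals mark each CG, which reads the same on both strands. The Capn6 window is chrX:143827363-143827662 on the minus strand, and the Capn2 window is chr1:182517561-182517860 on the minus strand, each written 5′ to 3′ along its gene.
Capn6: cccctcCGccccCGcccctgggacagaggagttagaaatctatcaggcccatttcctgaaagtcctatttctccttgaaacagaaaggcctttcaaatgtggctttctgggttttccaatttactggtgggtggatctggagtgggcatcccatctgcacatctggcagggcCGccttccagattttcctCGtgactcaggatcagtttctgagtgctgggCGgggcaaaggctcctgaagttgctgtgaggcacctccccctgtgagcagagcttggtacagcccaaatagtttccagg
Capn2: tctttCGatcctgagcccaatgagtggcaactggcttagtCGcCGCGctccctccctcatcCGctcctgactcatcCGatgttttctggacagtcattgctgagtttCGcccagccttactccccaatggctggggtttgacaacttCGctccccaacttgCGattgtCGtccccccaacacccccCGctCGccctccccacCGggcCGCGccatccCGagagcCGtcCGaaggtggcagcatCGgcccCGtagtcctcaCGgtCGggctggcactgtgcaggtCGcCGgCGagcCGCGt
The Capn6 window holds 5 CG and the Capn2 window 27. Of all 32851 windows 94.6% hold at least 1 CG, their median is 7, and 38.0% have fewer than Capn6 and 84.5% fewer than Capn2. Relative to the number their C and G contents would give, CG was present at 0.23 in the Capn6 window and 0.91 in that of Capn2, with a median of 0.38 over all windows. Of the other windows, some held fewer CG than that of Capn6 and none more than that of Capn2. Capn7 had 25 CG, Capn10 21 and Capns1 14, the 2 Capn1 windows 14 and 15, the 2 Capn3 windows 4 and 6, and the 4 Cast windows 2 to 11. The genes with a negative log2 fold change were Capn6 with 5 CG, Capns1 with 14, Capn7 with 25 and Capn5, which had no matched window. Capn6 was picked for its fall, and the differences of the last 3 did not pass. The Capns1 window (chr7:30195104-30195403, minus strand) lies inside the span of its gene, which runs to 30198883.

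Capn6 lies on the X chromosome between Pak3, a p21-activated kinase gene, and Dcx, which encodes the microtubule-binding protein doublecortin. The 5 nearest measured genes on each side were read from the same fit, and none of these 10 passed in limma as first fitted. Before adjustment 2 were higher and 1 was lower (7.34% and 6.97% of all genes). Pak3 measured 6.00 and 6.09 with decitabine and 5.60 and 5.49 in control cells, a log2 fold change of 0.50 ± 0.11 (limma adjusted p = 0.172), opposite in sign to its neighbour Capn6. Dcx measured 3.05 and 3.02 with decitabine and 3.34 and 3.53 in control cells (−0.40 ± 0.11, limma adjusted p = 0.237).

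Further along on the Pak3 side, Ammecr1 stood at 0.49 ± 0.11 (limma adjusted p = 0.194), the BMP antagonist gene Chrdl1 at 0.01 ± 0.17, the retrotransposon-derived gene Rtl9 at −0.16 ± 0.20 and the microRNA gene Mir652 at 0.20 ± 0.12. Beyond Dcx, the glycosyltransferase subunit gene Alg13 stood at −0.11 ± 0.13, the cation channel gene Trpc5 at −0.02 ± 0.11, the microRNA gene Mir680-2 at −0.11 ± 0.14 and A730046J19Rik at −0.05 ± 0.21. With the intensity trend Pak3 (limma adjusted p = 0.0415) and Ammecr1 (limma adjusted p = 0.00467) passed as higher and 0 of the 10 as lower (3.68% and 3.60% of all genes). The differences around Capn6 therefore had both signs, and none of the 10 was as far below 0 as Capn6. Because Capn6 was picked for its fall, that comparison is no evidence of a difference from its neighbours. Rtl9, Dcx, A730046J19Rik and Mir652 were also dim, with group means under 3.82, the 25th percentile of level over all genes. No background level could be set, so a large fall in such genes might not show.

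**Figure D3:**
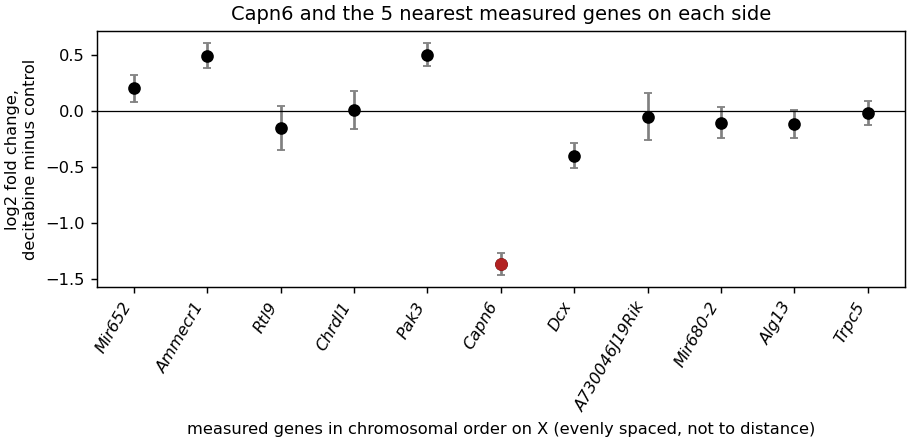
Log2 fold change, decitabine minus control, with limma SE bars, of Capn6 (red) and the 5 nearest measured genes on each side in chromosomal order (evenly spaced). Capn6 stands at −1.37, its neighbours Pak3 and Dcx at 0.50 and −0.40, and the rest between −0.16 and 0.49.

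The genes whose pattern over the 4 arrays lay nearest to that of Capn6 were found by the Euclidean distance between log2 values, each gene first centred on its own mean. In order these were Tmem255a, a transmembrane protein gene also on the X chromosome (distance 0.20), the EGF-repeat gene Megf6 (0.23), the ferric reductase gene Cybrd1 (0.25), Scrg1 (0.26) and Ccbe1, a secreted protein gene needed for lymphatic vessel growth (0.28). Tmem255a measured 8.75 and 8.61 with decitabine and 10.11 and 9.79 in control cells. Megf6 measured 6.48 and 6.30 with decitabine and 7.55 and 7.63 in control cells. With 4 arrays in 2 groups, likeness to Capn6 means little more than a similar difference between the groups, and these genes were selected for it.

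**Figure D4:**
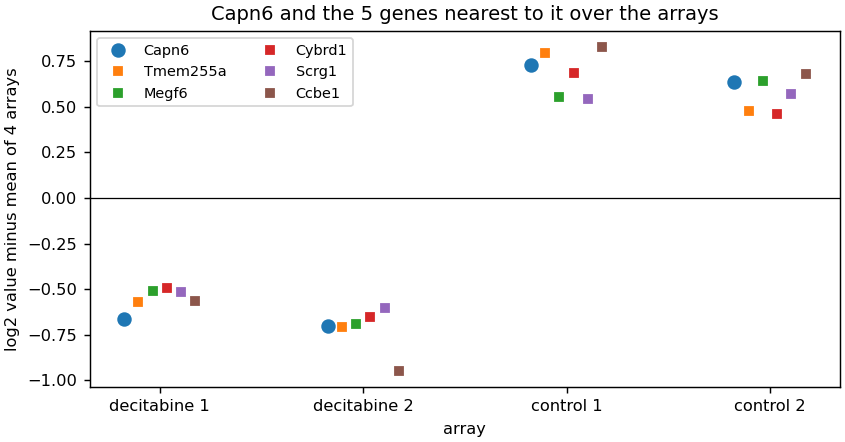
Log2 values, each gene centred on its mean over the 4 arrays, of Capn6 (circles) and the 5 genes at the smallest Euclidean distance from it (squares), which lie 0.20 to 0.28 away. All 6 genes are below 0 on both decitabine arrays and above 0 on both control arrays, as the choice by distance requires.

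Known substrates of the classical calpains had mostly positive log2 fold changes, and none passed over all genes in limma as first fitted. Of 29 listed genes 27 were measured, 22 had a positive and 5 a negative log2 fold change, and the median was 0.15 against 0.00 over all genes. Before adjustment 11 were higher and 1 was lower (7.34% and 6.97% of all genes), and with the intensity trend 9 were higher and 1 was lower (3.68% and 3.60% of all genes). Of the 27 genes 25 lay above the median level, against 11090 of all 22180 genes, so the shares over all genes are an unlike background. The list was also drawn up with earlier results of these data known. The smallest p-values were those of Actn1, Msn and Sptan1. Actn1, which encodes an actin-crosslinking alpha-actinin, measured 10.93 and 11.03 with decitabine and 10.28 and 10.30 in control cells (0.69 ± 0.10, limma adjusted p = 0.106).

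Msn, the gene of the membrane-to-actin linker moesin, stood at 0.50 ± 0.09 (limma adjusted p = 0.151) and the spectrin gene Sptan1, whose product is a standard readout of calpain cleavage, at 0.50 ± 0.10 (limma adjusted p = 0.162). Further substrates of the actin cortex and its adhesions, named after their values were seen, were on both sides of 0. The talin gene Tln1 stood at 0.45 ± 0.10, the filamin gene Flna at 0.48 ± 0.11, the alpha-actinin gene Actn4 at 0.46 ± 0.12, the integrin gene Itgb3 at 0.38 ± 0.12 and the vinculin gene Vcl at 0.34 ± 0.11. The second talin gene Tln2 stood at −0.05 ± 0.10, the ezrin gene Ezr at −0.02 ± 0.10, the paxillin gene Pxn at −0.01 ± 0.11, the cortactin gene Cttn at 0.02 ± 0.12 and Rhoa at 0.04 ± 0.10. Ppp3ca, the catalytic subunit gene of calcineurin, named likewise, was the substrate lower before adjustment, at −0.28 ± 0.09 (limma adjusted p = 0.305, with the trend 0.0259). For the higher genes Actn1, Msn and Sptan1 the limma adjusted p with the trend was 5.20e-05, 3.26e-04 and 3.54e-04. RNA levels of substrates say nothing of whether their proteins were cut.

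Microtubule genes, listed because the Capn6 product binds microtubules, had no call either without a trend. Of 26 measured members 20 were positive and 6 negative, with a median of 0.13. Before adjustment 8 were higher and 1 lower (7.34% and 6.97% of all genes), and with the trend 6 were higher and 1 lower (3.68% and 3.60%). Here too the background is unlike, since 23 of the 26 lay above the median level, and earlier results were known when the list was made. The alpha-tubulin gene Tuba1a measured 7.05 and 7.01 with decitabine and 6.11 and 6.22 in control cells (0.87 ± 0.10, limma adjusted p = 0.0763). The beta-tubulin gene Tubb3 stood at 0.81 ± 0.11 (limma adjusted p = 0.0977) and the microtubule-associated protein gene Map1b at 0.64 ± 0.11 (limma adjusted p = 0.135). The tubulin deacetylase gene Hdac6, named after its value was seen, was the lower one, at −0.36 ± 0.10. Tubulin genes have closely similar copies, so which copy a row measured is uncertain.

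Partners of the Capn3 product in muscle and genes of membrane repair, 15 measured, held 1 gene called higher and 0 called lower (0.131% and 0.0135% of all genes). Ankrd1, an ankyrin-repeat gene whose product binds titin, rose in limma (log2 fold change 2.41 ± 0.14, adjusted p = 0.0329), with 9.69 and 9.82 on the decitabine arrays and 7.48 and 7.20 on the control arrays. The list was drawn up with this rise already known. The call was lost with a block for the replicate number, with all rows fitted, and in each fit that left out an array. Of the list's 15 measured genes 10 were positive and 5 negative, with a median of 0.14. Before adjustment 5 were higher and 0 lower (7.34% and 6.97% of all genes). Since 10 of the 15 lay above the median level of all genes, the shares over all genes are an unlike background here too. The giant scaffold gene Ahnak (0.74 ± 0.10, limma adjusted p = 0.0998) and the calcium-dependent membrane-binding gene Anxa2 (0.88 ± 0.12, limma adjusted p = 0.101) came next. With the trend 4 of the 15 were higher and 0 lower (3.68% and 3.60% of all genes).

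The partners of the Capn7 product in the ESCRT-III pathway, listed together with proteins that carry the calcium-binding penta-EF-hand fold of the classical calpains, were spread evenly about 0. Of 12 measured genes 6 were positive and 6 negative, with a median of 0.01 and a range from −0.20 to 0.15. None passed in limma, and 0 did so before adjustment (7.34% and 6.97% of all genes) or with the trend (3.68% and 3.60%). In a list of 12 genes a count of 0 says little beside these shares. All 12 lay above the median level of all genes, so the shares are an unlike background. The ESCRT-III subunit gene Chmp2a stood at −0.19 ± 0.09, the penta-EF-hand genes Gca at −0.18 ± 0.10 and Pef1 at −0.20 ± 0.11.

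**Figure D5:**
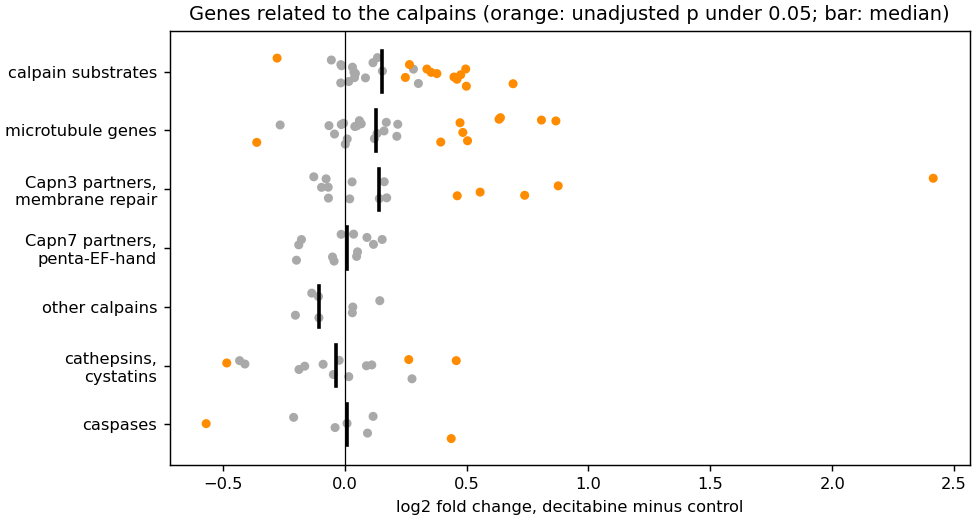
Log2 fold change, decitabine minus control, of genes related to the calpains, 1 point per gene (vertical jitter has no meaning), with black bars at the list medians and orange points at an unadjusted p under 0.05. The medians of the substrate, microtubule and Capn3 partner lists are 0.15, 0.13 and 0.14, those of the other lists lie between −0.11 and 0.01, and the point at 2.41 is Ankrd1.

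Markers of the labelled tumour type and of other cells were read beside these results. Of 10 ovarian and epithelial markers 8 were positive, 0 passed in limma, and 4 were higher and 1 lower both before adjustment (7.34% and 6.97% of all genes) and with the intensity trend (3.68% and 3.60%), with a summed log2 level of 69.4 to 70.3 with decitabine and 67.5 to 68.1 in control cells. Of the 10 markers 7 lay above the median level of all genes, so the shares over all genes are an unlike background. The mesothelial surface gene Msln and the keratin genes Krt8 and Krt18 had the smallest p-values. Msln stood at 0.86 ± 0.10 (limma adjusted p = 0.0762, with the trend 4.66e-04) and Krt8 at 0.53 ± 0.13 (limma adjusted p = 0.210, with the trend 0.0120). Krt18 stood at 0.33 ± 0.09 (limma adjusted p = 0.248, with the trend 0.00849). Negative values, picked out once seen, were those of the mesothelial transcription factor gene Wt1 (−0.28 ± 0.10, limma adjusted p = 0.321, with the trend 0.0106) and of Muc16 (−0.43 ± 0.18), the gene of the tumour marker CA125. The epithelial adhesion gene Epcam, which with Pax8 is named here as a defining marker after its value was seen, measured 4.99 and 4.76 with decitabine and 4.68 and 4.62 in control cells, and Pax8 measured 3.62 and 3.61 with decitabine and 3.50 and 3.46 in control cells. No background level could be set, so presence or absence of a marker was not called.

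Skeletal muscle markers, of interest for Capn3, summed to 46.3 to 47.0 with decitabine and 47.1 on both control arrays over 9 genes, with 4 positive and 5 negative. Among them Actn3 by itself (−0.65 ± 0.13) differed by more than the sum did on average. Myh1 stood at 0.40 ± 0.10 and Tnnt3 at −0.22 ± 0.12. Trophoblast markers, of interest because Capn6 is active in placenta, had 3 measured genes with Hand1 at 0.21 ± 0.09, Tpbpa at −0.07 ± 0.21 and Ascl2 at −0.06 ± 0.18, and summed to 13.1 to 13.8 with decitabine and 13.0 to 13.7 in control cells.

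Fibroblast markers summed to 68.3 to 69.0 with decitabine and 67.5 to 67.6 in control cells over 8 genes, 4 positive and 4 negative with a median of −0.03, and Thy1 alone (1.48 ± 0.17) differed by more than the sum did. Pdgfra (−0.28 ± 0.10) and Col3a1 (−0.25 ± 0.11) had the next smallest p-values. Leukocyte markers summed to 25.8 to 26.5 with decitabine and 24.6 to 25.1 in control cells over 6 genes, 5 positive and 1 negative. They were led by Cd68 (0.45 ± 0.10), Itgam (0.50 ± 0.11) and Csf1r (0.25 ± 0.13), and only 2 of the 6 lay above the median level of all genes. Endothelial markers summed to 21.7 to 21.9 with decitabine and 20.4 to 20.9 in control cells over 5 genes, 5 positive and 0 negative. They were led by Kdr (0.38 ± 0.12), Cdh5 (0.43 ± 0.14) and Emcn (0.14 ± 0.13), and only 1 of the 5 lay above that median level. None of the markers of these 5 other cell types passed in limma as first fitted. Before adjustment muscle and fibroblast markers each had 1 higher and 1 lower, leukocyte and endothelial markers each 2 higher and 0 lower, and trophoblast markers 0 (7.34% and 6.97% of all genes). With the intensity trend Thy1 (limma adjusted p = 2.39e-04) and Cd68 (0.0216) passed as higher and Pdgfra (0.00976) and Actn3 (0.00182) as lower, against 3.68% and 3.60% of all genes. The part of other cells in the calpain values was not tested.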

How the data were processed

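The data are from 4 Affymetrix Mouse Gene ST arrays, 2 per group, with groups and replicate numbers from the sample titles. The deposited table holds 1 value per row and array, taken as log2 from its range (0.55 to 13.26). Summarisation, background correction, scaling and log base are not given in the sources used here. The platform table gave 1 gene symbol for 23521 of the 41345 rows, several for 1814 and none here for 16010. The highest-mean row was kept for the 1082 genes with more than 1 row, which left 22180 genes. RefSeq (GRCm38.p6) matched 21994 of these by Entrez identifier and gave names, gene order and promoter windows. The table held 0 columns of other series.

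The test was that of limma 3.58.1 (R 4.3.3, lmFit then eBayes with no intensity trend), two-sided, on group alone. P-values were adjusted over all genes by Benjamini-Hochberg, and the fit was tested on simulated data. Figures used Python 3.11.15 and matplotlib 3.10.9. The members and lists were chosen with earlier results of these data known. Named genes were the members, the other calpain genes, up to 3 genes per list by smallest p, the 5 nearest measured genes on each side of Capn6 and the 5 most like it, and names outside this rule are marked in the text. The alternatives were quantile normalization, centring, filters on level at the 25th percentile and the median, robust eBayes, an intensity trend, a block for the replicate number, averaging of a gene's rows, a fit of all rows, and leaving out each array.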

Additional observations from a re-analysis of the deposited data

How the results depend on the processing

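All 7 calpain and calpastatin genes kept their direction under each alternative run, 13 for each gene except Capn3 with 12, since the filter at the median level left it out. The log2 fold change of Capn6 ran from −1.41 to −1.32. Capn2 passed in 2 alternatives, with the intensity trend (adjusted p = 0.00452) and among genes above the median level (adjusted p = 0.0449), so that the count of set members called higher was 1 in both, against 0 as reported. The count below the threshold as lower held Capn6 alone, which was picked for its fall, so it describes that choice and tests nothing. It was 1, was 0 with the replicate block or with all rows fitted, and was 0 whichever array was left out. Over all genes, 29 were called higher and 3 lower. These counts were 817 and 798 with the trend, 43 and 8 with centred arrays, 31 and 5 with the mean of a gene's rows and 15 and 3 with robust eBayes. The filters on level tested fewer genes. Above the 25th percentile of level the counts were 151 and 64, and among the 11090 genes above the median level they were 635 and 616. With all rows fitted and with the replicate block both counts were 0, as they were when any 1 array was left out. The cause was not tested. Same-numbered samples did not deviate together (r = −0.02 across 22180 genes, which are not independent), so the numbers were not taken to pair the samples. With 2 arrays a group and no background level, a small difference in a dim gene such as Capn3 could not be resolved.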

Other observations

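Other cysteine protease families on the same arrays had members on both sides of 0. Of 14 lysosomal cathepsin, legumain and cystatin genes 6 were positive and 8 negative, with a median of −0.03. None passed in limma, and before adjustment (p under 0.05) there were 2 higher and 1 lower (7.34% and 6.97% of all genes). Since 10 of the 14 lay above the median level of all genes, these shares are an unlike background. The collagen-degrading cathepsin gene Ctsk stood at 0.46 ± 0.13, with 4.67 and 4.83 on the decitabine arrays and 4.17 and 4.43 on the control arrays. Ctsf stood at −0.48 ± 0.15, and the cystatin inhibitor gene Cst6 at 0.26 ± 0.10.

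Of 7 measured caspase genes, 4 were positive and 3 negative, with a median of 0.01, and none passed in limma as first fitted. Before adjustment (p under 0.05) 1 was higher and 1 lower (7.34% and 6.97% of all genes). The executioner caspase gene Casp6 measured 8.57 and 8.55 with decitabine and 9.13 on both control arrays (−0.57 ± 0.09, limma adjusted p = 0.129). The inflammatory caspase gene Casp4 measured 8.71 and 8.62 with decitabine and 8.23 on both control arrays (0.44 ± 0.10, limma adjusted p = 0.189), and the initiator gene Casp9 stood at −0.21 ± 0.10. With the intensity trend Casp6 passed as lower (limma adjusted p = 5.19e-04) and Casp4 as higher (limma adjusted p = 0.00466). In that fit 3.60% of all genes passed as lower and 3.68% as higher. All 7 caspase genes lay above the median level of all genes, so the shares over all genes are an unlike background.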
